A study of Mus musculus with 6 samples.

Results

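The Cyp2a and Cyp2d subfamilies are groups of cytochrome P450 genes. In control livers and livers with a knockout of the long noncoding RNA Blnc1, 8 of their genes were followed. These were Cyp2a4, Cyp2a5, Cyp2a12 and Cyp2a22, and Cyp2d10, Cyp2d22, Cyp2d26 and Cyp2d40. They were chosen by gene symbol, as 8 of the 17460 genes listed for each liver, and all 8 passed the filter on low values that left 17297 genes for testing. A further 6 listed genes carry a Cyp2a or Cyp2d symbol, and their values are given where they bear on the 8. Cytochrome P450 enzymes of these subfamilies sit in the endoplasmic reticulum of hepatocytes, receive electrons from the reductase encoded by Por, and insert oxygen into steroids, drugs and other small molecules. Mouse Cyp2a5 hydroxylates coumarin and nicotine, and its transcription is known to respond to the nuclear receptor CAR, to HNF4A and to NRF2. The closely related Cyp2a4 hydroxylates testosterone and is known as a gene expressed more highly in female than in male liver, whereas Cyp2d9, a close relative of the Cyp2d genes followed here, is more highly expressed in males.

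Liver RNA came from 3 control (Ctrl) and 3 liver-specific Blnc1 knockout (Blnc1 LKO) C57BL/6 mice. All were 9 months old and had been fed the same NASH diet (D09100301), which brings on steatohepatitis, for 24 weeks, so the groups share the diet and no liver on another diet was compared. The methods describe the knockout as Cas9 transgenic mice given an adenovirus that carries guide RNAs against Blnc1, with Cas9 mice given a control virus as the comparison. This virus reaches hepatocytes far better than other liver cells, and whole liver was sequenced. In such mice the paper reports Blnc1 as lowered but not absent in whole liver, lowered further in isolated hepatocytes and little changed in other liver cells. The labels do not give the sex of the mice. Between 65384969 and 89350181 reads per liver fell on the listed genes. The deposited values are read numbers of each gene scaled by the authors with 1 size factor a liver, and are called normalized reads here. No gene is listed under the name Blnc1, so its loss was not measured. Paqr9, of which RefSeq lists Blnc1 as a synonym, is treated in the paper as the gene adjacent to Blnc1. The paper found its mRNA unaffected by the guide RNAs, so Paqr9 does not stand in for Blnc1. Here Paqr9 had a log2 fold change of 0.08 (SE 0.11, adjusted p = 0.978, limma).

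The 8 genes lie in 2 clusters of related neighbours, some nearly identical, which matters for how their reads can be told apart. On chromosome 7 (GRCm38, the build also called mm10), Cyp2a4 spans 26307169 to 26315088, Cyp2a5 26835305 to 26843548 and Cyp2a12 27029081 to 27037375 on the + strand, and Cyp2a22 spans 26931631 to 26939384 on the - strand. On chromosome 15, all on the - strand, Cyp2d22 spans 82370527 to 82380260, Cyp2d10 82402846 to 82407195, Cyp2d40 82759833 to 82764183 and Cyp2d26 82790101 to 82794294. All are protein coding in GENCODE. The coding sequences of Cyp2a5 and Cyp2a4 are 98.4% identical and differ at 23 of 1482 bases, spread over all 9 exons. Exon 4 carries the most of these, 5. It is shown because no other exon holds as many coding bases by which reads of this pair can be assigned. Cyp2a5 and Cyp2a4 also had fold changes of opposite sign in the comparison of the groups. In the 2 coding stretches of exon 4 below, chr7:26837091-26837251 for Cyp2a5 and chr7:26308928-26309088 for Cyp2a4, both on the + strand, capitals mark the bases at which the pair differs.
Cyp2a5: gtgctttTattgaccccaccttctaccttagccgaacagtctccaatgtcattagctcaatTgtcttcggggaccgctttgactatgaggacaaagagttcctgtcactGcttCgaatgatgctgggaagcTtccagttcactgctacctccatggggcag
Cyp2a4: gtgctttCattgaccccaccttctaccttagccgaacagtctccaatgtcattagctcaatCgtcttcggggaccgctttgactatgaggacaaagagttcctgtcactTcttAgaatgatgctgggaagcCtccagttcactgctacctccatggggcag
Counted from the start codon, with the base of Cyp2a5 first, these differences are T501C, T555C, G603T, C607A and T625C. The last lies in codon 209, the codon at which a single change of residue is known from enzymology to switch the preferred substrate between coumarin and steroids.

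Cyp2a12, which hydroxylates steroids and bile acids, and Cyp2a22 form a second such pair. Their coding sequences are 97.0% identical, with 45 differences over 1476 bases, of which exon 9 holds 10. Its coding part is shown because no other exon holds as many bases that differ in this pair. It lies at chr7:27036465-27036643 on the + strand in Cyp2a12 and at chr7:26932354-26932532 on the - strand in Cyp2a22, with capitals again for the bases that differ.
Cyp2a12: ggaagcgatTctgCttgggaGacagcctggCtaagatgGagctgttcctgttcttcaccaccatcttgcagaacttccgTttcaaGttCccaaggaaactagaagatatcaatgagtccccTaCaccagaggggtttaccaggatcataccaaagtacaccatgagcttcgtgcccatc
Cyp2a22: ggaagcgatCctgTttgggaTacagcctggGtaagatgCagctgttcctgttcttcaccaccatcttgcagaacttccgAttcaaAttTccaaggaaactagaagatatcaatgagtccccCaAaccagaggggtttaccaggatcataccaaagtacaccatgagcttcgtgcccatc
Between the pairs the identity falls to 75.2% for Cyp2a4 and Cyp2a12. The Cyp2d members are less alike than either of these pairs, with 81.3% between Cyp2d10 and Cyp2d26 and 78.1% between Cyp2d22 and Cyp2d26, but Cyp2d10 is 92.5% identical to Cyp2d9 and 94.7% to Cyp2d11.

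**Figure D1:**
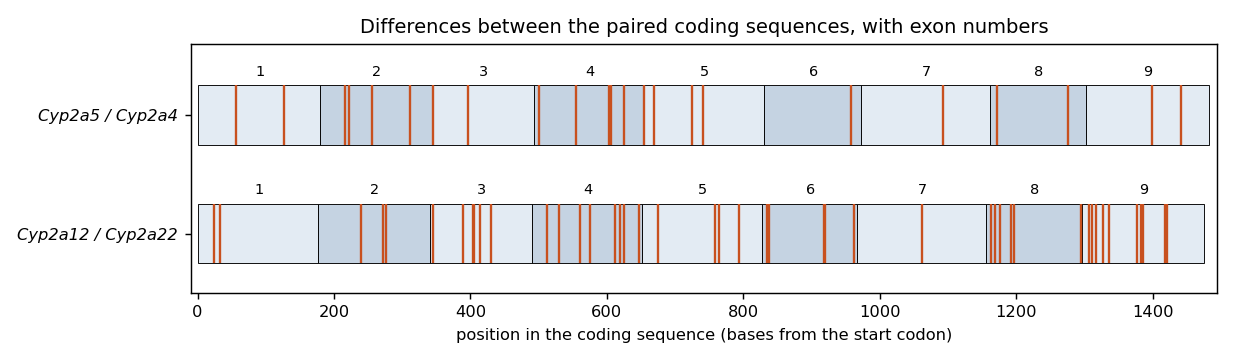
Positions at which the coding sequences of Cyp2a5 and Cyp2a4 (23 positions) and of Cyp2a12 and Cyp2a22 (45 positions) differ, in bases from the start codon. Boxes are the 9 exons of each pair with their numbers, and red lines are single differing bases. Long stretches without a line, up to 216 bases in Cyp2a5 and Cyp2a4, cannot tell the pair apart.

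How much of each gene is shared was counted on the GENCODE transcripts. Of all stretches of 50 consecutive bases in the transcript used for a gene, 38.8% in Cyp2a4 and 40.8% in Cyp2a5 also occur in a transcript of another gene. The share was 27.5% for Cyp2a12, 25.7% for Cyp2a22, 40.5% for Cyp2d10 and 24.1% for Cyp2d40. Cyp2d26 at 10.5% and Cyp2d22 at 6.14% are the most separable. For stretches of 100 bases the range ran from 0% in Cyp2d40 to 14.8% in Cyp2d10, with 11.2% in Cyp2a4 and 14.4% in Cyp2a5. The read length and the treatment of reads with several matches are not given in the sources used here, so the split of reads within the pairs is uncertain for Cyp2a4, Cyp2a5, Cyp2a12, Cyp2a22 and Cyp2d10. A small error in the assignment of Cyp2a5 reads would weigh more on Cyp2a4, which had far fewer reads.

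The region before the start of transcription is alike as well in the first pair. RefSeq promoter windows (GRCm38.p6), from 250 bases before to 50 after the start, matched 7 of the 8 genes, all but Cyp2d22. Over the window, Cyp2a4 and Cyp2a5 were 97.7% identical and Cyp2a12 and Cyp2a22 84.2%. The 100 bases before the start are shown for the first pair because genes so alike in this region had different values, and for Cyp2d10 as the gene whose groups did not overlap. They lie at chr7:26835239-26835338 on the + strand (Cyp2a5), chr7:26307092-26307191 on the + strand (Cyp2a4) and chr15:82407195-82407294 on the - strand (Cyp2d10). Capitals mark the bases that are not matched in the alignment of Cyp2a5 with Cyp2a4, and in Cyp2d10 the TATA match. The first A of Cyp2a4 and the last T of Cyp2a5 face no base, because the windows are shifted against each other. They are not substitutions.
Cyp2a5: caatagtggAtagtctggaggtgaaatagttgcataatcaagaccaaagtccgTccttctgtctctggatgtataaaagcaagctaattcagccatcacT
Cyp2a4: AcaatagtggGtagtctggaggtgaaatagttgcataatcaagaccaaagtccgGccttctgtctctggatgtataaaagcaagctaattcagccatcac
Cyp2d10: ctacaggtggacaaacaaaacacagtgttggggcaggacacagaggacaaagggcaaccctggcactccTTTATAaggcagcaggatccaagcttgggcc
Each of the 7 promoters holds 1 match to TATAAA on either strand, a motif found in 13.6% of all 32544 distinct promoter windows. On the strand of the gene it occurs in the 4 Cyp2a promoters, beginning 28 to 39 bases before the start, and in Cyp2d10, Cyp2d26 and Cyp2d40 it is on the opposite strand. None of the 7 holds CAAAGTCCA (a binding motif of HNF4, in 0.479% of promoters), TTGCGCAA (C/EBP, 0.184%), TTCNNNGAA (STAT5, 8.33%), TGACNNNGC (NRF2, 12.4%) or GCGTG (the xenobiotic response element, 32.6%). Without the last letter of the HNF4 motif, a choice made after the sequences were seen, CAAAGTCC occurs in Cyp2a4 and Cyp2a5 and in 1.43% of promoters. All were searched on both strands, and the HNF4 motifs overlap each other. These are letter matches in a short window and say nothing of binding.

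Levels differed widely between the 8 genes. Per kilobase of transcript, which allows genes to be compared, Cyp2d26 had the highest mean in Ctrl livers, 32294 ± 3023 normalized reads per kb (SD, n = 3). Cyp2a12 followed with 19652 ± 2211, Cyp2a5 with 16873 ± 3773 and Cyp2d10 with 15250 ± 728 (SD, n = 3 each). The place of Cyp2a5 among these last 3 is not settled, since its Ctrl livers overlapped those of Cyp2a12 and those of Cyp2d10. Cyp2a12 lay above Cyp2d10 without overlap. Cyp2d22 (5707 ± 311) and Cyp2d40 (3424 ± 526, SD, n = 3 each) came next without overlap. Cyp2d40 has a short transcript model of 1163 bases and 6 exons. Cyp2a4 (762 ± 393) and Cyp2a22 (671 ± 189, SD, n = 3 each) were lowest and overlapped each other. In each near-identical pair, then, a gene at a high level stood beside one at a low level. In Blnc1 LKO livers the mean of Cyp2a5 was 26042 ± 9537 normalized reads per kb against 20119 ± 3298 for Cyp2a12 (SD, n = 3 each), and their livers overlapped. The fewest reads behind any value of the 8 genes were 550, for Cyp2a4, so counting error is small beside the differences between livers.

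The comparison of Blnc1 LKO with Ctrl livers asked whether the liver-specific knockout of Blnc1 changed these genes during the NASH diet. None of the 8 passed an adjusted p under 0.05 in limma on log2(normalized reads + 1), adjusted over all 17297 genes. Of all genes tested, 0.00578% passed, which is 1 gene. The smallest adjusted p among the 8 was 0.824 in limma, 0.842 in edgeR and 0.414 in DESeq2, and DESeq2 passed 0.538% of the genes it adjusted. At an unadjusted p under 0.05 in limma there were 2 of the 8, Cyp2a5 and Cyp2d10, beside 5.68% of all genes. The fold changes were above 0 for 6 of the 8 and below 0 for 2, with a median of 0.12 on the log2 scale, beside −0.00099 for all genes. In Cyp2d10 all 3 Blnc1 LKO livers lay above all 3 Ctrl livers, as in 5.35% of all genes. No member had all Blnc1 LKO livers below, as 5.28% of genes did. Nothing says that the mice came from separate litters or cages, and p-values measure the spread between these 6 livers. In whole liver, fewer cells of a type and less RNA per cell cannot be told apart.

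**Figure D2:**
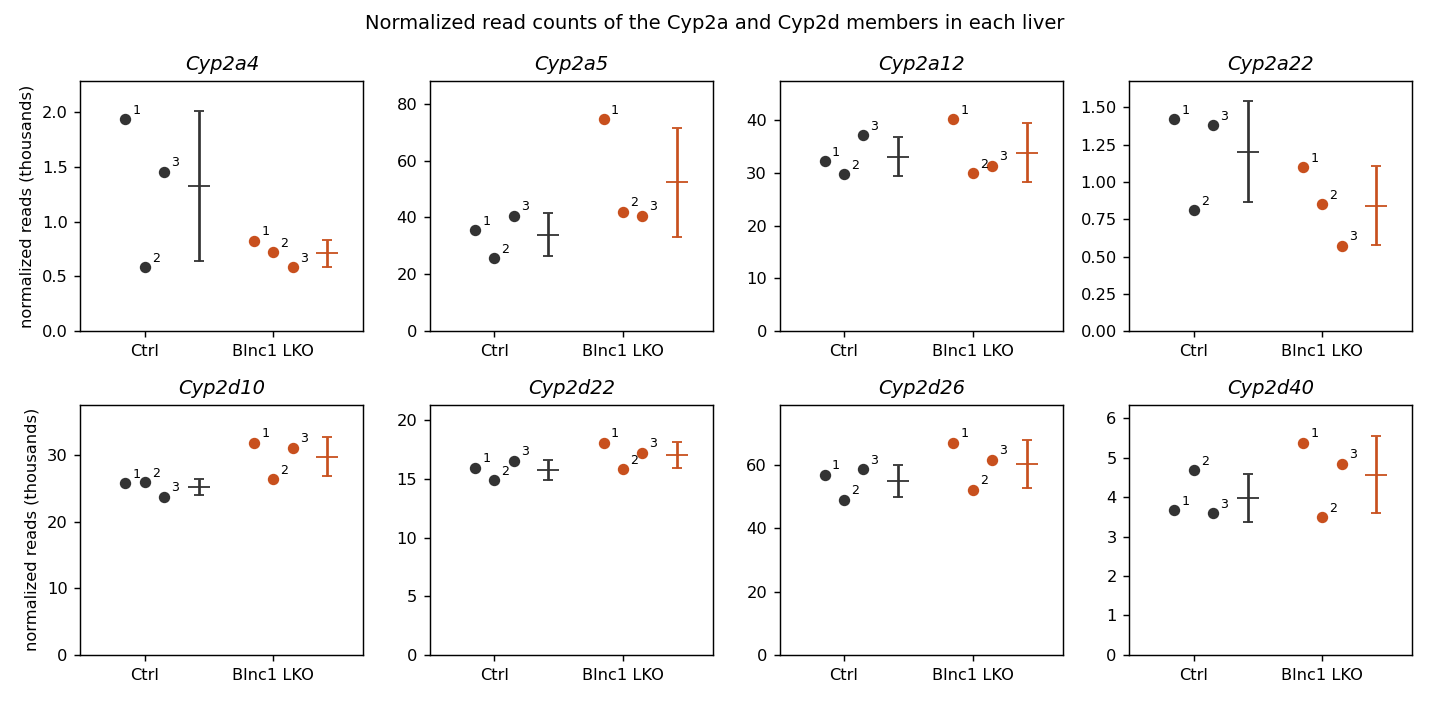
Normalized reads of the 8 genes in each liver, on axes from 0. Points are livers with their replicate number, and the bar beside them is the mean with the SD (n = 3 livers). Only Cyp2d10 has no overlap between Ctrl (dark) and Blnc1 LKO (orange) livers, and Blnc1 LKO 1 is the highest liver for 6 of the 8 genes.

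Cyp2a5 had 35494, 25721 and 40678 normalized reads in Ctrl livers and 74574, 42093 and 40599 in Blnc1 LKO livers. Blnc1 LKO 1 stood far above the other livers, and Blnc1 LKO 3 was just below Ctrl 3, so the groups overlapped. The means were 33964 ± 7595 and 52422 ± 19199 (SD, n = 3 each), and the log2 fold change was 0.59 (SE 0.24, 95% interval 0.039 to 1.15, adjusted p = 0.857, limma). The unadjusted p in the same limma fit was 0.0387. Without Blnc1 LKO 1 the log2 fold change was 0.31, and without Ctrl 3 the groups no longer overlapped, as in 8.84% of all genes in that direction.

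Cyp2a4, the female-biased testosterone hydroxylase paired with it by sequence, had 1933, 586 and 1453 normalized reads in Ctrl livers and 826, 721 and 585 in Blnc1 LKO livers. Ctrl 2 was as low as the lowest Blnc1 LKO liver, and the other Ctrl livers were above all Blnc1 LKO livers. The coefficient of variation in Ctrl livers was 51.6%, the largest of the 8 genes. The means were 1324 ± 683 and 710 ± 121 (SD, n = 3 each). The log2 fold change of −0.75 (SE 0.37, 95% interval −1.60 to 0.11) was within the spread between livers (adjusted p = 0.899, limma). It was −1.25 without Ctrl 2 and −0.39 without Ctrl 1. When the reads of Cyp2a4 and Cyp2a5 were summed, the sum had a log2 fold change of 0.56 (adjusted p = 0.873, limma).

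Cyp2a22 followed the liver order of Cyp2a4. Its values were 1421, 813 and 1379 normalized reads in Ctrl livers and 1100, 852 and 572 in Blnc1 LKO livers. Again Ctrl 2 was the low liver of its group and lay within the Blnc1 LKO range. The log2 fold change was −0.52 (SE 0.27, adjusted p = 0.899, limma), −0.78 without Ctrl 2 and −0.27 without Blnc1 LKO 3. With Ctrl 2 left out, Cyp2a4 and Cyp2a22 had all Blnc1 LKO livers below the remaining Ctrl livers, as 8.98% of all genes did.

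Cyp2a12 showed no separation of the groups at all. It had 32216, 29795 and 37091 normalized reads in Ctrl livers and 40167, 29922 and 31371 in Blnc1 LKO livers, so that the highest and the next to lowest liver were both knockouts. Its log2 fold change was 0.03 (SE 0.12, 95% interval −0.25 to 0.31, adjusted p = 0.997, limma).

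The 4 Cyp2d genes all had fold changes above 0, from 0.11 to 0.24 on the log2 scale. Cyp2d10 had 25747, 25900 and 23749 normalized reads in Ctrl livers and 31799, 26352 and 31074 in Blnc1 LKO livers. The lowest Blnc1 LKO liver was barely above the highest Ctrl liver, and the other knockouts were well above it. The means were 25132 ± 1200 and 29742 ± 2958 (SD, n = 3 each), and the log2 fold change was 0.24 (SE 0.083, 95% interval 0.050 to 0.43, adjusted p = 0.824, limma). Its unadjusted p in the limma fit was 0.0189. Leaving out each liver in turn gave log2 fold changes from 0.19 to 0.32.

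Cyp2d22, regarded as a mouse counterpart of the human drug-metabolizing enzyme CYP2D6, had 15957, 14877 and 16578 normalized reads in Ctrl livers and 18084, 15830 and 17252 in Blnc1 LKO livers. Its log2 fold change was 0.11 (SE 0.069, adjusted p = 0.951, limma). Cyp2d26, the most abundant of the 8 genes, had 56930, 49054 and 58714 in Ctrl livers and 67009, 52156 and 61692 in Blnc1 LKO livers. In both genes Blnc1 LKO 2 lay among the Ctrl livers while the other knockouts lay above them. Cyp2d26 had a log2 fold change of 0.13 (SE 0.11, adjusted p = 0.971, limma). Cyp2d40 had 3673, 4687 and 3586 normalized reads in Ctrl livers and 5372, 3485 and 4843 in Blnc1 LKO livers. Here Blnc1 LKO 2 was the lowest of all livers, and the log2 fold change was 0.18 (SE 0.16, adjusted p = 0.973, limma). Leaving out each liver in turn moved Cyp2d22 between 0.066 and 0.16, Cyp2d26 between 0.052 and 0.23 and Cyp2d40 between 0.056 and 0.37 on the log2 scale, in each with the lowest value without Blnc1 LKO 1 and the highest without Blnc1 LKO 2. With Blnc1 LKO 2 left out, all 4 Cyp2d genes had the remaining knockouts above every Ctrl liver, as did 14.7% of all genes. Their adjusted p-values in that limma fit ranged from 0.174 (Cyp2d10) to 0.448 (Cyp2d26), so none passed there either.

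**Figure D3:**
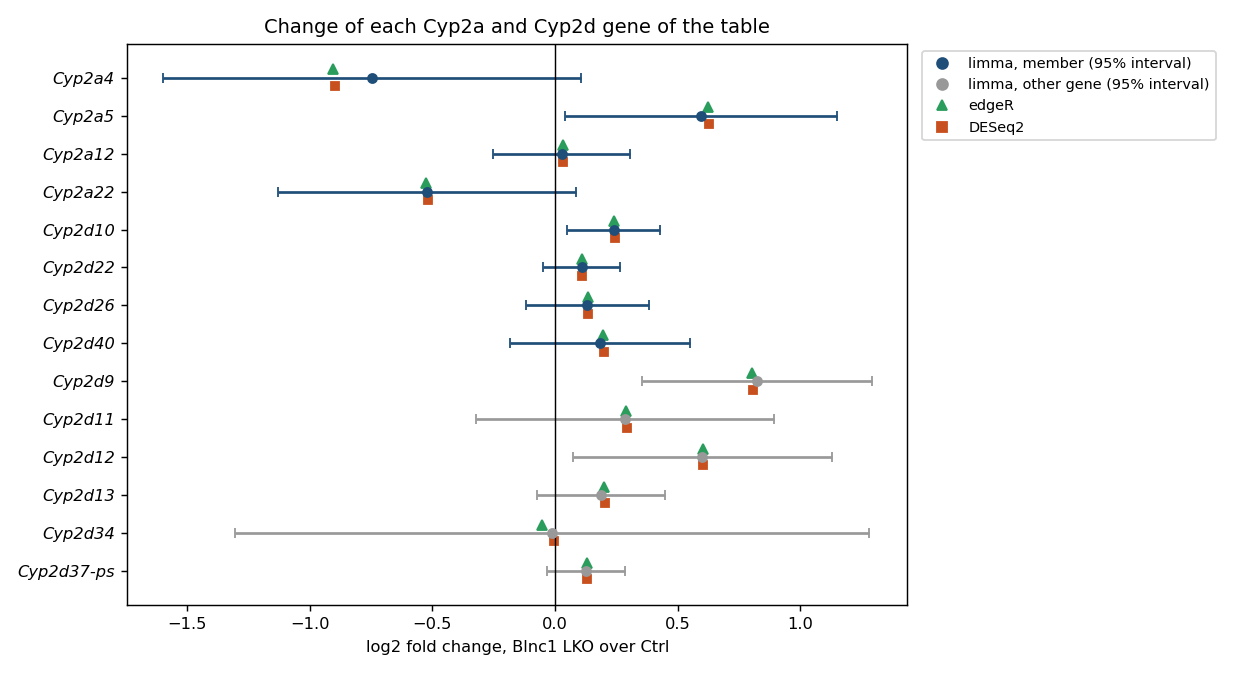
Log2 fold changes (Blnc1 LKO over Ctrl) of the 14 listed Cyp2a and Cyp2d genes, with limma estimates and 95% intervals as circles (blue for the 8 members, grey for the others) and edgeR and DESeq2 estimates as triangles and squares. The Cyp2d members lie between 0.11 and 0.24, Cyp2a4 and Cyp2a22 are below 0, and Cyp2d9 has the highest value at 0.82.

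Of the 6 listed genes of these subfamilies outside the members, all of them Cyp2d genes, 5 had fold changes above 0. Cyp2d9, the male-biased testosterone hydroxylase, had 38942, 50722 and 29168 normalized reads in Ctrl livers and 66437, 56364 and 84894 in Blnc1 LKO livers, without overlap. Its log2 fold change of 0.82 (SE 0.21, adjusted p = 0.589, limma) was larger than that of any of the 8 genes and did not pass. Cyp2d12 also had no overlap, at 74.6, 86.3 and 56.5 normalized reads in Ctrl livers and 142, 101 and 89.4 in Blnc1 LKO livers (log2 fold change 0.60). Of all genes, 5.35% had all Blnc1 LKO livers above in this way. Cyp2d13 (0.19), Cyp2d11 (0.29) and the pseudogene Cyp2d37-ps (0.13) were nearer to the 8 genes in log2 fold change, and Cyp2d34 had a mean near 2 normalized reads. Within each liver, Cyp2d9 had 1.51, 1.96 and 1.23 times the normalized reads of Cyp2d10 in Ctrl livers, and 2.09, 2.14 and 2.73 times in Blnc1 LKO livers.

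Ratios within a liver set members against each other without the scaling between livers, and were chosen after the values were seen. The ratio of Cyp2a5 to Cyp2a4 was 18.4, 43.9 and 28 in Ctrl livers and 90.3, 58.4 and 69.4 in Blnc1 LKO livers. Every knockout was above every Ctrl liver. The means were 30.1 ± 12.9 and 72.7 ± 16.2 (SD, n = 3 each), a difference of 1.34 on the log2 scale (exact permutation test, two-sided, p = 0.1, the smallest that 3 against 3 livers can give). When each liver was dropped in turn, the difference ranged from 1.03 to 1.66. Cyp2a5 over Cyp2a12 also did not overlap, at 1.10, 0.863 and 1.10 in Ctrl livers and 1.86, 1.41 and 1.29 in Blnc1 LKO livers (exact permutation p = 0.1). The ratio of Cyp2a12 to Cyp2a22, with 22.7, 36.7 and 26.9 in Ctrl livers and 36.5, 35.1 and 54.8 in Blnc1 LKO livers, overlapped (exact permutation p = 0.3). These ratios are of reads, not of transcripts per length, and carry the uncertain assignment within each pair. Since 4 ratios were tested, the values of 0.1 are not adjusted and no test of this design could pass 0.05.

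**Figure D4:**
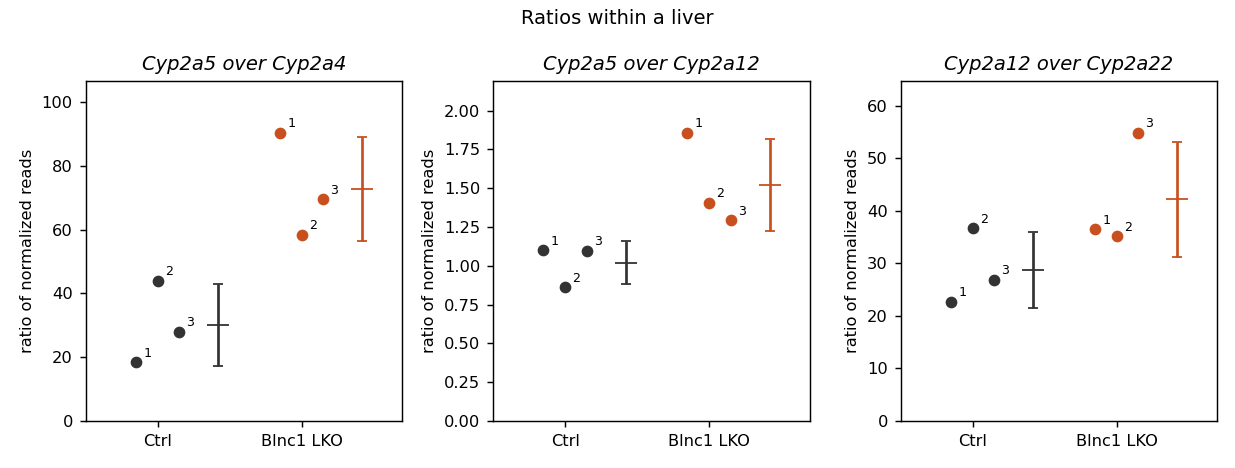
Ratios of normalized reads within each liver for Cyp2a5 over Cyp2a4, Cyp2a5 over Cyp2a12 and Cyp2a12 over Cyp2a22, on axes from 0. Points are livers with their replicate number and bars are the mean with the SD (n = 3 livers). The first and second ratio do not overlap between Ctrl (dark) and Blnc1 LKO (orange), and the third does.

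Much of the variation was between livers of the same group. Blnc1 LKO 1 held the highest value of 6 of the 8 genes, all but Cyp2a4 and Cyp2a22, and Ctrl 2 held the lowest value of 4. Against the Ctrl mean, Cyp2a5 differed by 1.16 on the log2 scale in Blnc1 LKO 1, by 0.34 in Blnc1 LKO 2 and by 0.28 in Blnc1 LKO 3. In Blnc1 LKO 1 the 31 listed Cyp2 genes outside the Cyp2a and Cyp2d subfamilies were also high, by 0.86 on average on the log2 scale, against 0.061 in Blnc1 LKO 2 and 0.32 in Blnc1 LKO 3. The 11 hepatocyte genes tested, Alb among them, averaged 0.10 in Blnc1 LKO 1. Without Blnc1 LKO 1, 5 of the 8 genes were above 0 and 3 below, with a median log2 fold change of 0.054. The gene that changed sides was Cyp2a12, at −0.10. Together the 4 Cyp2a genes took 0.0935% ± 0.0156 of the reads in Ctrl and 0.117% ± 0.0286 in Blnc1 LKO livers, and the 4 Cyp2d genes 0.134% ± 0.00575 and 0.149% ± 0.0108 (SD, n = 3 each). Both overlapped between the groups.

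**Figure D5:**
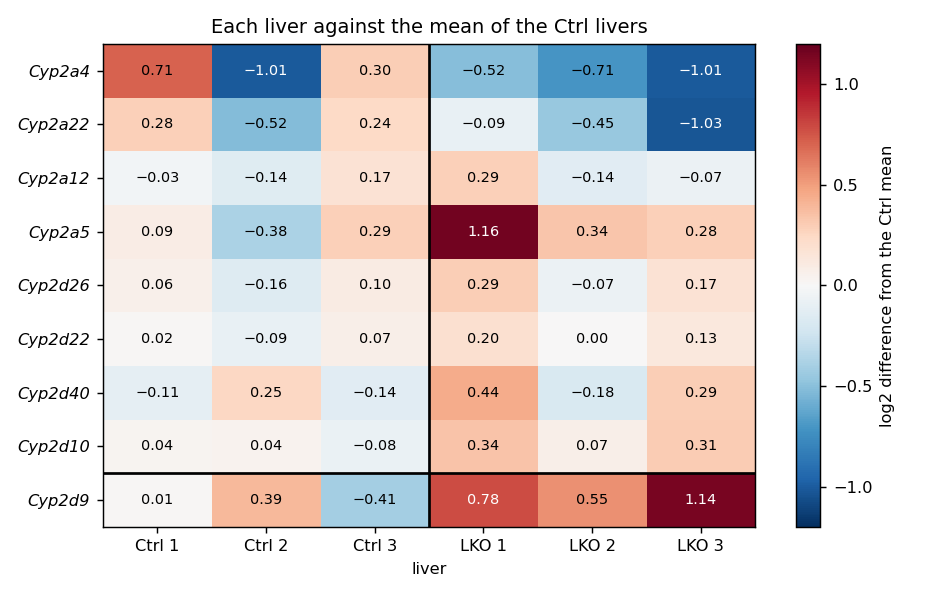
Log2 difference of each liver (columns) from the mean of the Ctrl livers for the 8 genes and, below the line, Cyp2d9 (rows). Red is above and blue below the Ctrl mean. Cyp2a4 and Cyp2a22 are below the Ctrl mean in Ctrl 2 and in all Blnc1 LKO livers, by as little as 0.087 for Cyp2a22 in Blnc1 LKO 1, and Cyp2a5 reaches 1.16 in Blnc1 LKO 1.

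Some of the genes shared an order of livers, and others did not. The correlations that follow describe log2 values over the same 6 livers, which share their library, group and scaling, and they are given without a test. Cyp2d22 and Cyp2d26 had the same order of livers (Pearson's r = 0.977, Spearman's rho = 1), as did Cyp2a4 and Cyp2a22 (r = 0.897, rho = 1). The near-identical Cyp2a4 and Cyp2a5 did not go together (r = 0.038, rho = 0.14). Cyp2d10 was nearest among these genes to Cyp2d9 (r = 0.894, rho = 0.94), and Cyp2a22 ran against Cyp2d9 (r = −0.823, rho = −0.71). Cyp2a12 went with Nr1i3, which encodes CAR (r = 0.960, rho = 0.94), and with Alb, the albumin gene (r = 0.949, rho = 0.83). Cyp2a5 had a high r but a lower rho with Nr1i3 (r = 0.923, rho = 0.66) and with Cyp2d22 (r = 0.893, rho = 0.60). Cyp2d22 and Cyp2d26 went with Cyp2f2, a periportal P450 gene (r = 0.945 and 0.961, rho = 1 for both). They also went with Nr1i3 (r = 0.868 and 0.863, rho = 0.94 for both). The same held for Cyp2e1, expressed around the central vein (r = 0.896 and 0.805, rho = 0.83 for both). With Por, r was lower (0.592 and 0.588). Among the 12488 genes with a mean of at least 100 normalized reads, the genes nearest by r over 6 livers were AW011738 for Cyp2a4 (0.987), Gkap1 for Cyp2a5 (0.994), Gbp6 for Cyp2a22 (0.992), Asgr1 for Cyp2d10 (0.993), Impg2 for Cyp2d22 (0.990), Ddt for Cyp2d26 (0.994) and Nmrk1 for Cyp2d40 (0.993). Each was picked as the highest among so many genes over only 6 livers, where unrelated genes can reach such values. No relation between these genes was tested.

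Neither the partners nor the regulators of these enzymes held a gene that passed, in limma or in DESeq2. Of 14 genes for electron transfer and heme synthesis, 11 were above 0 and 3 below, none passed in limma, and the median log2 fold change was 0.038. Por had 38181 ± 4668 normalized reads in Ctrl and 38164 ± 2793 in Blnc1 LKO livers (mean ± SD, n = 3 each). Cyb5a, the alternative electron donor cytochrome b5, had a log2 fold change of 0.09, and Alas1, the rate-limiting enzyme of heme synthesis, −0.10. The heme-degrading Hmox1 had the largest value among genes of this list with a mean of at least 100 normalized reads, 0.53 (SE 0.19, adjusted p = 0.831, limma). All its Blnc1 LKO livers lay above the Ctrl livers, as in 5.35% of all genes. Of 19 regulators of liver P450 genes, 10 were above 0 and 9 below and none passed, with a median of 0.017. Nr1i3 (0.13), Nr1i2, the gene of PXR (−0.09), and Hnf4a (0.04) had small log2 fold changes with overlapping livers. Nfe2l2, the gene of NRF2, had 11949 ± 239 normalized reads in Ctrl and 11071 ± 271 in Blnc1 LKO livers (mean ± SD, n = 3 each), with all Blnc1 LKO livers below (log2 fold change −0.11, adjusted p = 0.880, limma). Of the 19 regulators, 1 had all Blnc1 LKO livers below and 1 had all above, beside 5.28% and 5.35% of all genes.

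Because Cyp2a4 and Cyp2d9 are sex-biased genes, lists of such genes were set beside them. The lists were chosen with earlier results of these data known, and genes of a list can vary together. Their counts are therefore descriptive and were not tested against the share of all genes. All 19 tested male-biased genes, Cyp2d9 among them, were above 0, with a median log2 fold change of 0.82. Single livers stood apart within the groups, since the average difference of the list from the Ctrl mean was −0.27, 0.47 and −0.20 in the Ctrl livers and 1.40, 0.58 and 1.24 in the Blnc1 LKO livers, so that Ctrl 2 came close to Blnc1 LKO 2. In 8 of the 19 all Blnc1 LKO livers lay above, where 5.35% of all genes did, and none passed in limma, while DESeq2 passed 2, Susd4 and Nudt7. Hsd3b5 had the largest value among genes of the list with a mean of at least 100 normalized reads, 4.04 (SE 0.98, adjusted p = 0.555, limma). The 24 tested female-biased genes, which hold Cyp2a4 and Cyp2a22, divided into 13 above and 11 below 0, with a median of 0.033. Among those with a mean of at least 100 normalized reads, Cyp17a1, the steroid hydroxylase and lyase, was lowest at −1.19 (adjusted p = 0.523, limma), followed by Cyp2a4. Cyp2b13 was the highest of them, at 0.88 (adjusted p = 0.951, limma). Of 12 regulators of the growth hormone pathway, which sets the sex pattern of liver genes, 6 were above and 6 below 0. Among them Bcl6, a repressor of female-biased genes, had a log2 fold change of −0.52 (adjusted p = 0.840, limma). Stat5b had one of −0.09 with all Blnc1 LKO livers below, as in 5.28% of all genes.

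Genes known for a lobular position in hepatocytes were followed in 2 further lists. Whole-liver RNA gives the levels of such genes and does not show where cells lie. Both lists were also chosen with earlier results of these data known, so their counts are descriptive and were not tested. Of 18 genes expressed around the central vein, Cyp2a5 among them, 17 were above 0, with a median log2 fold change of 0.19, and in 4 all Blnc1 LKO livers lay above, where 5.35% of all genes did. Against the Ctrl mean the list averaged 0.43 on the log2 scale in Blnc1 LKO 1, 0.065 in Blnc1 LKO 2 and 0.21 in Blnc1 LKO 3. Cyp2a5 had the highest value among genes of that list with a mean of at least 100 normalized reads, next to Cyp1a2 (0.58, adjusted p = 0.824, limma). Of 17 periportal genes, 12 were below 0 and 5 above, with a median of −0.15. Among those with a mean of at least 100 normalized reads, Cyp2f2 (0.36) and Cdh1 (0.15) were highest. Apoa4 (−0.46) and Aldh1b1 (−0.43) were lowest. Against the Ctrl mean this list averaged 0.0025, −0.14 and 0.14 in Ctrl livers and 0.013, −0.25 and −0.17 in Blnc1 LKO livers. The groups overlapped. Outside the 2 subfamilies, 25 of 31 Cyp2 genes were above 0, with a median of 0.37, and Cyp2c54 had the highest value among those with a mean of at least 100 normalized reads, 1.46 (adjusted p = 0.824, limma). No gene of these 3 lists passed in limma. DESeq2 passed Cyp2e1 (log2 fold change 0.41, adjusted p = 0.0324), the periportal Apoa4 and Cyp2c44.

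Markers of other liver cells were summed beside these results, since whole liver was used, and the part of cell composition in them was not tested. Of 11 hepatocyte genes 7 were above 0 (median 0.015), and their summed values ranged from 6507180 to 7039030 normalized reads in Ctrl and from 6244280 to 7411070 in Blnc1 LKO livers. Of 10 Kupffer cell and macrophage genes 8 were above 0, and their sums ranged from 91589 to 99200 in Ctrl and from 98997 to 106153 in Blnc1 LKO livers. Of 10 stellate cell genes 8 were below 0, of which DESeq2 passed 4 (Col1a1, Col1a2, Col3a1 and Acta2) and limma none, with sums from 116353 to 128866 and from 98178 to 116993. The 10 endothelial genes had 8 below 0 (sums from 41691 to 44342 and from 40685 to 42011). Of 8 cholangiocyte genes 5 were below 0 (59915 to 71816 and 47481 to 71767), and of 9 lymphocyte genes 6 (5387 to 5901 and 5208 to 6266). None of the tested marker genes of these lists was at 0 in any liver.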

How the data were processed

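Whole-liver mRNA, selected by polyA, had been sequenced for 3 Ctrl and 3 Blnc1 LKO mice. Libraries were made with the Illumina TruSeq RNA kit v2, which does not mark strand. The authors used STAR for alignment (mm10), HTSeq for counting and DESeq2 for testing, and FastQC is also named in the submitters' processing notes. Versions, annotation, filters and read length are not given in the sources used here. The deposited signal is, for 17460 gene symbols, the read count of a gene after the authors scaled it with 1 size factor a liver. Columns named for wild-type and knockout livers were matched to Ctrl and Blnc1 LKO livers of the same number.

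limma (version 3.58.1, in R 4.3.3, lmFit and eBayes with a trend) was fitted to log2(value + 1). Tested were the 17297 genes that reached a value of 1 in 3 or more livers, p-values were adjusted over all of them (Benjamini-Hochberg), and the threshold was 0.05. This scale understates the change of low genes. Reads were recovered by dividing by the value of 1 read, and 100% came out whole within 0.1. They served edgeR (version 4.0.16, quasi-likelihood), DESeq2 (version 1.42.0) and voom as alternatives. The fits were tested on simulated data. The members and gene lists were chosen with earlier results of these data known. Named genes are the 8 members, the other Cyp2a and Cyp2d genes, electron donors and regulators, and up to 2 genes at each end of a list with a mean of at least 100. Loci, transcripts and coding sequences came from GENCODE M21, promoters from RefSeq. The gene nearest to Cyp2a12 by correlation is not reported here.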

Additional observations from a re-analysis of the deposited data

How the results depend on the processing

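None of the 8 genes passed the threshold under any of the 14 alternatives, in which the number of all genes called was 1 with all livers in limma, 2 without a filter on low values, 2 in edgeR and 84 in DESeq2; leaving out 1 liver at a time gave 0 to 13 genes, with 0 without Ctrl 1, 3 without Ctrl 2, 2 without Blnc1 LKO 1 and 13 without Blnc1 LKO 2. At an unadjusted p under 0.05, limma had 983 genes, edgeR 968 and DESeq2 846. A replicate block in limma left 0 genes (912 at an unadjusted p under 0.05); the numbers share no stated litter or day, and deviations of same-numbered livers correlated at −0.058, −0.019 and −0.11, so the livers share only a number. The number of members without overlap, 1 with all livers, ran from 1 to 4 when a liver was left out: 3 without Ctrl 2 (1 above and 2 below, beside 9.65% and 8.98% of all genes), 2 above without Ctrl 3 (8.84%), 4 above without Blnc1 LKO 2 (14.7%) and 2 above without Blnc1 LKO 3 (10.3%). The log2 fold change of Cyp2a12 ran from −0.10 to 0.11 with 1 liver left out, and its sign turned without Ctrl 2 (−0.04) and without Blnc1 LKO 1 (−0.10), and that of Cyp2a4 when its reads were summed with those of Cyp2a5 (0.56), a sum made up mostly of Cyp2a5. All other alternatives kept the sign of each of the 8 genes. With 3 livers a group, changes of the size seen here could not be told from the spread between livers, and reads shared within the near-identical pairs leave the values of their genes uncertain.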
